A study of Mus musculus with 8 samples.

Results

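Klf4, Klf5, Atoh1, Spdef, Gfi1, Creb3l1 and Creb3l4 are transcription factor genes that act on the renewal of the gut lining or on its secretory cells. They were followed across 8 Affymetrix arrays of mouse intestinal epithelial cells. The members were taken by name: 7 probe sets, 1 for each of the 7 genes, among 19938 measured genes. By mean level, all 7 ranked among the 13292 brighter genes that one alternative keeps. The epithelium came from male ICR mice, an outbred stock, 8 weeks old, whose small intestine had been transfected in life and was collected 4 days later. In the siRNA arm, 3 arrays from intestine given siRNAs against YAP and TAZ (siYAP/TAZ) were set against 3 arrays from intestine given an siRNA against GFP, a jellyfish protein (siGFP). In the shRNA arm, 1 array from intestine transfected with shRNA plasmids that target YAP and TAZ (shYAP/TAZ) was set against 1 array from intestine transfected with an shRNA plasmid that targets LacZ of bacteria (shLacZ). The labels name a control array for each array labelled YAP/TAZ, which gives 4 pairs, 3 in the siRNA arm and 1 in the shRNA arm. They do not say what the arrays of a pair share, nor that the arrays of a group came from separate mice, so p-values measure only the spread between these samples.

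The intestinal epithelium is renewed from stem cells at the crypt base, and a minority of their progeny become secretory cells: goblet, Paneth, enteroendocrine and tuft cells. Atoh1, a basic helix-loop-helix factor held down by Notch signalling, commits progenitors to the secretory fate, and Gfi1 and Spdef act after it. In mice, Klf4 supports goblet cell differentiation, Klf5 is a factor of dividing crypt cells, and Creb3l1 and Creb3l4 encode membrane-bound basic leucine zipper factors of the endoplasmic reticulum that secretory cells use. YAP and TAZ, the coactivators that the Hippo pathway restrains, are studied in the gut for their part in crypt proliferation and in goblet cell differentiation, and the series compares epithelium with and without nucleic acids that target both.

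The RNA of the targets did not follow the labels. Yap1 had log2 intensities of 7.41, 6.78 and 7.47 on the siYAP/TAZ arrays and 7.25 on the shYAP/TAZ array, against 7.16, 7.64 and 7.20 on the siGFP arrays and 7.35 on the shLacZ array. Wwtr1, which encodes TAZ, had 5.60, 5.94 and 5.66 on the siYAP/TAZ arrays and 6.02 on the shYAP/TAZ array, against 6.16, 5.36 and 6.52 on the siGFP arrays and 5.96 on the shLacZ array. The groups overlapped for both genes, so directions below refer to arrays as labelled. The isolates also differed in makeup. The median level of 16 mitotic genes was 5.49 to 5.87 on siYAP/TAZ 2, siYAP/TAZ 3 and siGFP 3, and 7.56 to 8.45 on the other arrays. In siRNA pair 2 the labelled array was thus low in mitotic genes and its control was not. The median of the differences of the 16 genes was -1.72 there, against 0.26, -0.03 and 0.05 in siRNA pairs 1 and 3 and the shRNA pair. The means over the pairs are therefore given also without siRNA pair 2 where leaving it out moved them by over 1.5 times or turned their sign. In whole isolates, fewer cells of a type and less RNA per cell cannot be told apart. Epithelial genes such as Epcam were bright in both groups, at a mean log2 intensity of 11.8 on the 4 labelled arrays and 12.1 on the 4 controls.

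Atoh1 and Creb3l4 had the lowest mean differences over the 4 pairs among the members, and both were lower on the array labelled YAP/TAZ in each pair. Creb3l1 was lower in all 4 pairs as well, Gfi1 was higher in all 4, and Klf4, Klf5 and Spdef did not keep one direction. No member passed the threshold, an adjusted p under 0.05 over all genes. In simulated data the test recovered 0% of genes changed by 1 log2 unit, more than any member's mean difference. Not passing therefore says little about differences of the members' size. Among all genes, 8.95% were lower in all 4 pairs and 6.02% higher in all 4, against 3 and 1 of the 7 members. Atoh1 and Creb3l4 varied together across the arrays, as shown further on, so the counts are a description.

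**Figure D1:**
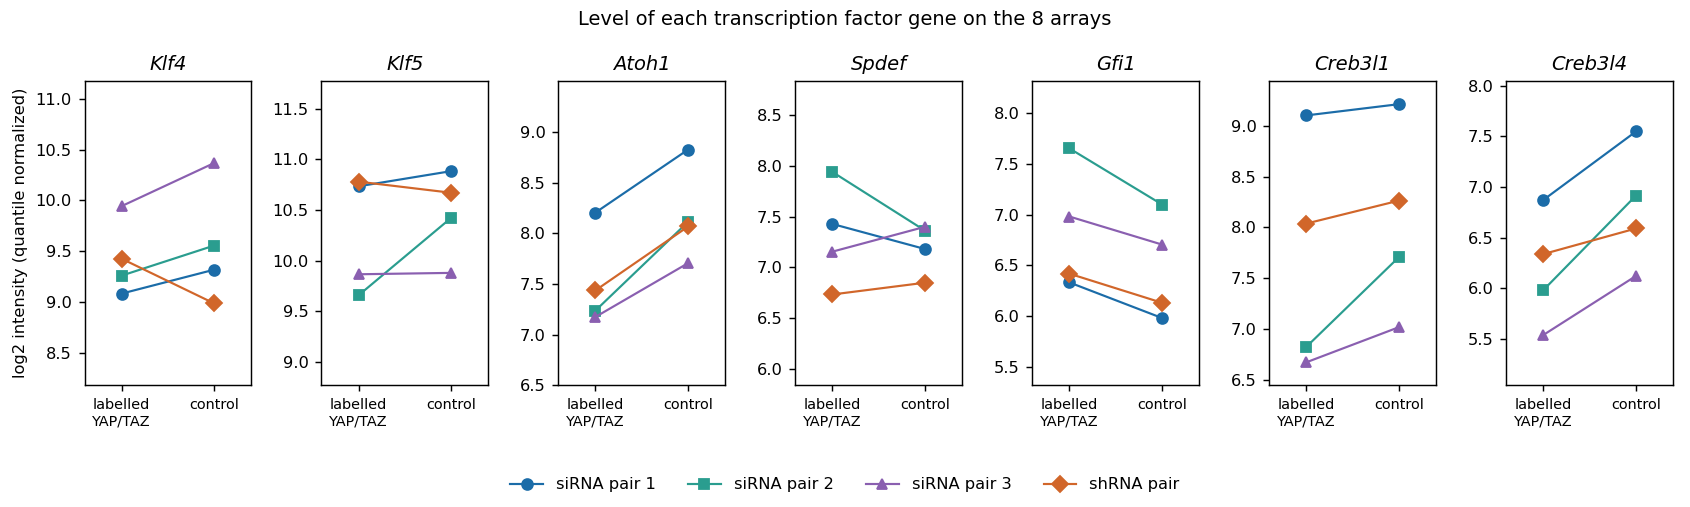
Quantile-normalized log2 intensity (vertical axis, each panel spanning 3 units) of the 7 genes on the 8 arrays. Each line joins an array labelled YAP/TAZ (left) to the control array its label names (right). All 4 lines climb to the right for Atoh1, Creb3l1 and Creb3l4 and descend for Gfi1, while the pairs start from different levels.

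RefSeq promoter windows were available for 5 of the 7 members, with 8 annotated starts. Those of Atoh1, Creb3l4 and Gfi1, which kept 1 direction in all pairs, and of Klf4 are shown to place the family motifs in them. Each sequence below is the 250 bases before the start farthest upstream in GRCm38.p6, 5′ to 3′ on the gene's strand. Capitals mark CACCC, the core of the box that Krüppel-like factors bind, GGAATG, the core that the TEAD partners of YAP and TAZ bind, and CANNTG, the E-box of helix-loop-helix factors, each searched on both strands. The windows are chr6:64728875-64729124 (plus strand) for Atoh1, chr3:90243513-90243762 (minus strand) for Creb3l4, chr5:107725806-107726055 (minus strand) for Gfi1 and chr4:55532476-55532725 (minus strand) for Klf4.
Atoh1: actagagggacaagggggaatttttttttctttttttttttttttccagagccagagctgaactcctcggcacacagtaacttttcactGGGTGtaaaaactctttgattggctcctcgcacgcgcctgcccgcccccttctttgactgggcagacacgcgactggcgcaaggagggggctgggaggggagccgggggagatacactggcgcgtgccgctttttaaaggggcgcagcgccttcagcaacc
Creb3l4: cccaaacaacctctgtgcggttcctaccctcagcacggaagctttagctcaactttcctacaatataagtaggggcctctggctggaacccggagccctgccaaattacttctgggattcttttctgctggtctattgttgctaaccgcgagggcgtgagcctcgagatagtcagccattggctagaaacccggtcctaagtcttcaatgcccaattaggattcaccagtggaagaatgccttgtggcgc
Gfi1: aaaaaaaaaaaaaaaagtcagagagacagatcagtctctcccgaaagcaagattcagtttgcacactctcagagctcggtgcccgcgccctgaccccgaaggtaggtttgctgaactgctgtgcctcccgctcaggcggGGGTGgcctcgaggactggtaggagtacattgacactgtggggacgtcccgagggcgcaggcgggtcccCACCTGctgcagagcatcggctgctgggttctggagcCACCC
Klf4: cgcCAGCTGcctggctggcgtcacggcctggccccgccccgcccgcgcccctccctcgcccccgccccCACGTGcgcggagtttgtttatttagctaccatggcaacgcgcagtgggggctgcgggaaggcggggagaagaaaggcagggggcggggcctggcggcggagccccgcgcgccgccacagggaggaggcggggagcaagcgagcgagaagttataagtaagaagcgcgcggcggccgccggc
The Atoh1 window held 1 CACCC box and no E-box. The Klf4 window held 2 E-boxes and no CACCC box. The Gfi1 window held 2 CACCC boxes and 1 E-box, and the Creb3l4 window held none of the 3 motifs. The second Creb3l4 start, not shown, held 2 CACCC boxes and 3 E-boxes, the second Gfi1 start held 1 E-box, and the third Creb3l4 start and the Spdef window held neither. No GGAATG lay in any of these 4 windows; among all 8 windows it lay only at the second start of Gfi1, 226 bases upstream. Of 32851 windows of the same length, 52.0% held CACCC, 66.2% an E-box and 12.6% GGAATG. The motifs may overlap one another, and a match or its absence is a description of these letters only.

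Atoh1, the factor of secretory commitment, had log2 intensities of 8.20, 7.24 and 7.17 on the siYAP/TAZ arrays and 7.44 on the shYAP/TAZ array, against 8.83, 8.11 and 7.71 on the siGFP arrays and 8.07 on the shLacZ array. Every labelled array lay below its own control, but the groups overlapped, since siYAP/TAZ 1 stood above siGFP 2, siGFP 3 and shLacZ 1. The log2 differences were -0.62, -0.88 and -0.53 in the 3 siRNA pairs and -0.63 in the shRNA pair, with an SD of 0.15 between pairs. The mean over the 4 pairs was -0.66 on the log2 scale, or 1.59-fold lower (SE 0.18, 95% CI -1.08 to -0.25, where CI is the confidence interval). That fit, limma over all genes with the pair as a block, gave an adjusted p of 0.366, with 276 genes ranked ahead of Atoh1. The exact sign-flip test gave the smallest p that 4 pairs allow, which lies above 0.05, as it did for each of the members with 1 direction in all pairs. In the siRNA arm alone, without pairing, Atoh1 averaged 7.54 ± 0.58 on the siYAP/TAZ arrays and 8.21 ± 0.57 on the siGFP arrays (SD, n = 3 each; exact two-sided permutation p = 0.3; limma adjusted p = 1.00). Without siRNA pair 2 the Atoh1 difference was -0.59 (SE 0.18; limma adjusted p = 0.362), a value close to that of all 4 pairs. Limma called 26 genes (0.13%) in those 3 pairs, and no member was among them.

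Over all genes, limma called 0 in the siRNA arm (0% of 19938), where 237 genes had an unadjusted p under 0.05, and 4 over the 4 pairs (0.0201%), where 1493 did. The 4 were B3gnt7 and B3galt5, higher on the labelled arrays, and Rdh7 and Olfr165, lower; they are named after their values were seen. With the arm in place of the pair in the fit, limma called 0 genes and 534 had an unadjusted p under 0.05; the Atoh1 difference kept its size with an SE of 0.33 and an adjusted p of 1.00. Before adjustment, 7.49% of all genes had p under 0.05 over the 4 pairs and 1.19% in the siRNA arm; of the members, Atoh1 and Creb3l4 did over the pairs and none in the siRNA arm. The siYAP/TAZ and siGFP arrays overlapped for all 7 members, while 4.59% of genes had groups that did not. A difference of at least 0.5 lower in every pair was seen for 74 genes (0.371%), and Atoh1 was the 1 member among them. The bound was not planned and lies close to the Atoh1 difference of -0.53 in siRNA pair 3, so the share is a description.

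Creb3l4, one of the membrane-bound leucine zipper factors, ran beside Atoh1. It had 6.87, 5.98 and 5.54 on the siYAP/TAZ arrays and 6.34 on the shYAP/TAZ array, against 7.55, 6.92 and 6.12 on the siGFP arrays and 6.59 on the shLacZ array. Again each labelled array was below its control and the groups overlapped, with siYAP/TAZ 1 above siGFP 3 and shLacZ 1. The differences were -0.68, -0.93 and -0.58 in the siRNA pairs and -0.25 in the shRNA pair. Over the 4 pairs Creb3l4 was 1.53-fold lower, at -0.61 on the log2 scale (SE 0.20, 95% CI -1.05 to -0.17; limma adjusted p = 0.466). Without siRNA pair 2 it was -0.50 (SE 0.19). With the arm in place of the pair in the fit, Creb3l4 had an SE of 0.38 (95% CI -1.46 to 0.24). Its lowest 3 levels were on siYAP/TAZ 3, siYAP/TAZ 2 and siGFP 3, the arrays low in mitotic genes.

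Creb3l1, the related factor, spread widest of the members, over 2.55 log2 units. It had 9.11, 6.82 and 6.67 on the siYAP/TAZ arrays and 8.04 on the shYAP/TAZ array, against 9.22, 7.71 and 7.02 on the siGFP arrays and 8.26 on the shLacZ array. The lowest 3 levels, 6.67 to 7.02, were on siYAP/TAZ 3, siYAP/TAZ 2 and siGFP 3, the arrays low in mitotic genes, and the other 5 arrays stood at 7.71 to 9.22, with both arrays of siRNA pair 1 highest. The part of this difference between isolates in the Creb3l1 values was not tested. Within pairs the differences were -0.11, -0.89, -0.35 and -0.23, and siRNA pair 2 gave the largest. The mean over the 4 pairs was -0.39 (SE 0.20; limma adjusted p = 0.743), and without siRNA pair 2 it was -0.23 (SE 0.18), a change of over 1.5 times. In the siRNA arm Creb3l1 averaged 7.53 ± 1.36 on the siYAP/TAZ arrays and 7.98 ± 1.12 on the siGFP arrays (SD, n = 3 each), so the difference was smaller than the spread within either group. The sign turned, to 0.17, without siGFP 1.

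Gfi1, a zinc finger repressor that acts after Atoh1 in goblet and Paneth cells and is also a factor of blood cells, was the member that ran the other way. It had 6.33, 7.65 and 6.98 on the siYAP/TAZ arrays and 6.42 on the shYAP/TAZ array, against 5.98, 7.10 and 6.70 on the siGFP arrays and 6.13 on the shLacZ array. Each labelled array lay above its control, while the groups overlapped. The differences were 0.35, 0.55 and 0.28 in the siRNA pairs and 0.29 in the shRNA pair, with an SD of 0.13. The mean over the 4 pairs was 0.37 (SE 0.18, 95% CI -0.04 to 0.78; limma adjusted p = 0.721). All 11 measured B and plasma cell markers were also higher in the mean of the siRNA arm, though not in every pair. Their median level was 5.24, 7.56 and 6.94 on the siYAP/TAZ arrays and 5.07 on the shYAP/TAZ array, against 5.15, 5.10 and 5.58 on the siGFP arrays and 5.74 on the shLacZ array. By pair, the median of the differences of these 11 genes was 0.04, 2.88, 1.39 and -0.56, where Gfi1 differed by 0.35, 0.55, 0.28 and 0.29. The median differences of T cell markers were -0.26, -0.16, 0.81 and -0.03, and those of myeloid markers 0.06, 0.02, -0.12 and 0.94. The part of these cells in the Gfi1 values was not tested.

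**Figure D2:**
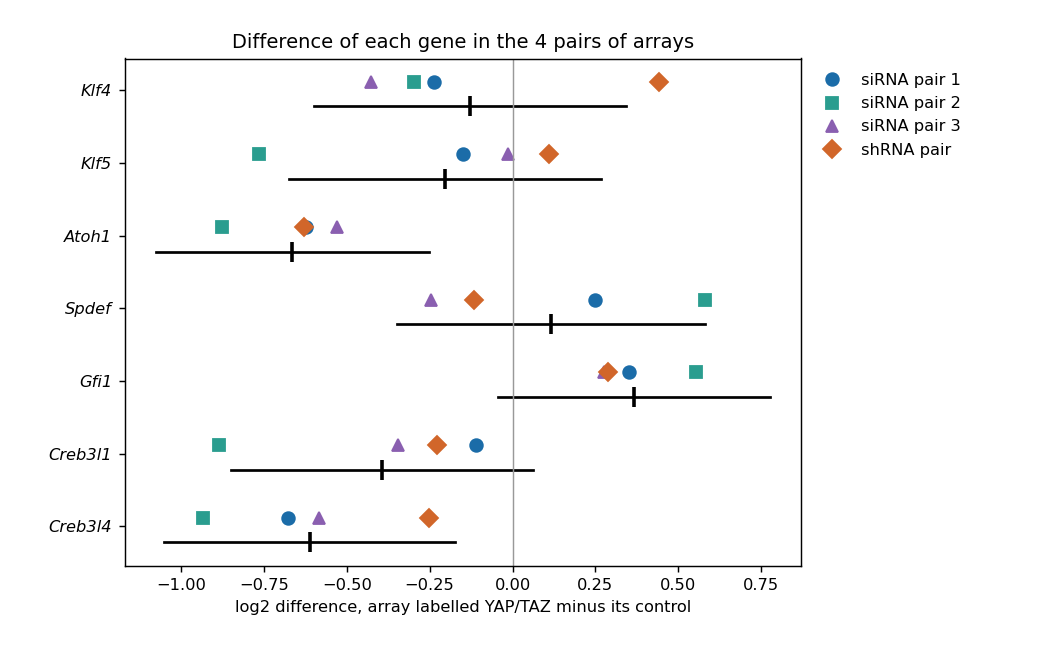
Log2 difference, array labelled YAP/TAZ minus its control, for each gene in the 4 pairs (coloured points), with the limma mean over the pairs (vertical tick) and its 95% confidence interval (line). The intervals of Atoh1 and Creb3l4 end below 0, at -0.25 and -0.17, while those of the other 5 genes span 0. None passed the threshold over all genes. With the arm in place of the pair in the fit, the Atoh1 and Creb3l4 intervals also span 0, at -1.40 to 0.07 and -1.46 to 0.24.

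Klf4, the Krüppel-like factor of goblet cell differentiation, was lower in the 3 siRNA pairs and higher in the shRNA pair. It had 9.08, 9.26 and 9.94 on the siYAP/TAZ arrays and 9.43 on the shYAP/TAZ array, against 9.32, 9.56 and 10.37 on the siGFP arrays and 8.98 on the shLacZ array. The highest level was on siGFP 3 and the lowest on shLacZ 1, so the control arrays spanned all the labelled ones. The differences were -0.24, -0.30 and -0.43 in the siRNA pairs against 0.44 in the shRNA pair, a pattern of 3 lower and then higher that 3.91% of all genes shared. In the siRNA arm Klf4 averaged 9.43 ± 0.46 on the siYAP/TAZ arrays and 9.75 ± 0.55 on the siGFP arrays (SD, n = 3 each; exact two-sided permutation p = 0.5). The siRNA arm's difference was -0.32 (SE 0.38), with a 95% CI of -1.19 to 0.55. Over the 4 pairs the difference was -0.13 (SE 0.21, 95% CI -0.60 to 0.34; limma adjusted p = 0.951), and -0.07 without siRNA pair 2.

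Klf5, the Krüppel-like factor of dividing crypt cells, had 10.73, 9.66 and 9.87 on the siYAP/TAZ arrays and 10.78 on the shYAP/TAZ array, against 10.88, 10.42 and 9.88 on the siGFP arrays and 10.67 on the shLacZ array. Its levels fell into a low set, siYAP/TAZ 2, siYAP/TAZ 3 and siGFP 3, and a high set of the other 5 arrays, and these are the same arrays that were low and high in mitotic genes. In siRNA pair 2 Klf5 differed by -0.76, and in siRNA pairs 1 and 3 and the shRNA pair by -0.15, -0.01 and 0.11. With arrays centred on the 75th percentile, the shRNA difference turned to -0.01 and that of siRNA pair 3 to 0.08. The mean over the 4 pairs was -0.20 (SE 0.21; limma adjusted p = 0.907), against -0.02 (SE 0.18) without siRNA pair 2. The log2 ratio of Klf4 to Klf5 within an array, which a shift of the whole array leaves alone, averaged -0.66 ± 0.89 on the siYAP/TAZ arrays and -0.65 ± 1.05 on the siGFP arrays (SD, n = 3 each; exact two-sided permutation p = 1). By pair it differed by -0.09, 0.47, -0.41 and 0.33 (exact sign-flip p = 0.875), so the 2 genes showed no shared shift of their ratio at this spread.

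Spdef, the ETS factor of goblet and Paneth cell maturation, had 7.43, 7.94 and 7.15 on the siYAP/TAZ arrays and 6.73 on the shYAP/TAZ array, against 7.18, 7.36 and 7.40 on the siGFP arrays and 6.85 on the shLacZ array. The lowest levels were those of the shRNA arm, in both groups. It was higher in siRNA pairs 1 and 2, by 0.25 and 0.58, and lower in siRNA pair 3 and the shRNA pair, at -0.25 and -0.12. The mean over the 4 pairs was 0.12 (SE 0.21, 95% CI -0.35 to 0.58; limma adjusted p = 0.956), and it turned to -0.04 without siRNA pair 2.

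Across the 8 arrays, Atoh1 and Creb3l4 varied together, as the plot of one against the other shows. Pearson's r was 0.956 and Spearman's rho 0.952 (exact permutation p = 0.000496 and 0.00114; 0.0104 and 0.0240 after Benjamini-Hochberg adjustment over the 21 pairs of members, n = 8), with r = 0.895 without the 2 arrays farthest from the median of Atoh1. Klf4 did not pass with Atoh1 or Spdef: its r with Atoh1 was -0.368 and with Spdef 0.092 (exact p = 0.374 and 0.820; adjusted 0.491 and 0.820), and its rho was -0.357 and -0.048 (adjusted 0.545 and 0.935; r = -0.107 and 0.046 without 2 arrays). The 8 arrays share their pairs and include the arrays low in mitotic genes, so these values mix differences between isolates with differences between groups. The permutations took the 8 arrays as independent and left out the pairs, so these p-values may be too small. The lowest 3 levels of Creb3l4 were on the arrays low in mitotic genes. Klf5 and Creb3l1 also had their lowest 3 levels there. Creb3l1 ran from 6.67 to 7.02 on those arrays and from 7.71 to 9.22 on the other 5, without a clear split. The 4 other pairs of members that passed by Pearson's r each held Klf5 or Creb3l1. They were Klf5 with Creb3l1 (r = 0.919) and Gfi1 (-0.836), and Creb3l1 with Atoh1 (0.849) and Creb3l4 (0.880). They mix isolates and groups in the same way. No value is given within the 3 low arrays or the other 5, since neither set reaches 6 arrays.

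**Figure D3:**
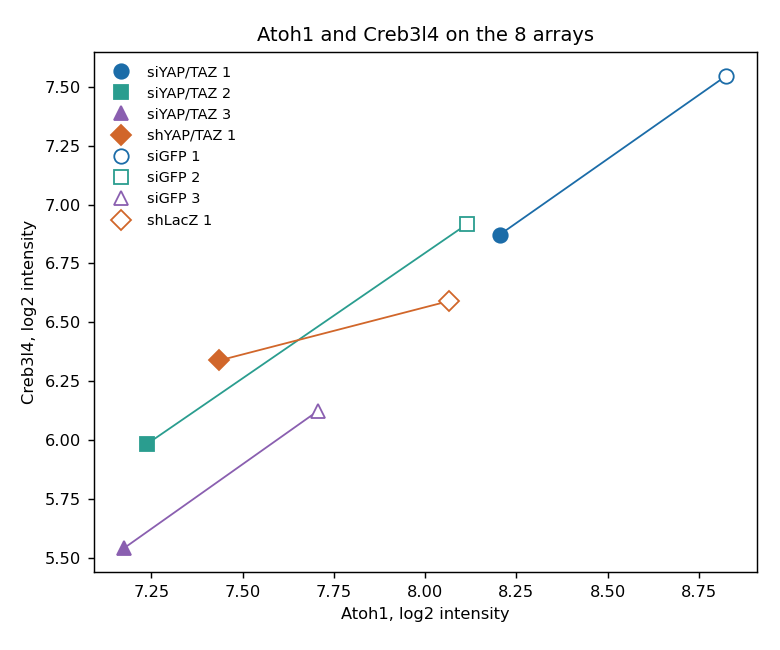
Log2 intensity of Creb3l4 (vertical) against Atoh1 (horizontal) on the 8 arrays, with filled symbols for arrays labelled YAP/TAZ, open symbols for controls and a line joining each pair. In each pair the labelled array lies below and to the left of its control, and the pairs themselves are spread along the same diagonal (r = 0.956, n = 8).

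By Pearson's r over the 8 arrays among the 13291 brighter genes, the genes most like Klf4 were Dusp11 (0.973), Ccdc138 (0.966), Icmt (0.965), Dnttip1 (0.959) and Trabd2b (0.957). For Atoh1 they were Supt3 (0.978), Habp2 (0.976) and St3gal3 (0.975), and for Creb3l4 Wdyhv1 (0.987), Elovl5 (0.980) and Habp2 (0.975). Habp2, which also stands in the list of Paneth markers used here, was near both genes and was lower in all 4 pairs, by log2 differences of -0.50, -1.01, -0.64 and -0.78. The nearest for Gfi1 were n-R5s136 (0.991), Adamts9 (0.990) and Gm10785 (0.985), and those for Spdef Rel (0.961), Zfp512 (0.929) and Erp29 (0.929). For Klf5 they were Tarbp1, Hcfc1 and Tti1, and for Creb3l1 Nup160, Gnpnat1 and Rab15. With 8 arrays and this many genes, values of this size are a ranking and carry no test.

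The cells these factors act on were followed through lists of their genes. Goblet products and markers, such as mucus proteins, had 4 of 22 measured genes higher and 18 lower in the mean of the 4 pairs, with a median log2 difference of -0.37; the median of all genes was -0.02, with 10660 of 19938 lower. None of the 22 passed (limma). The goblet medians by pair were -0.60, 0.15, -0.79 and -0.03, so the list was not lower in siRNA pair 2, where Atoh1, Creb3l1 and Creb3l4 were at their lowest relative to control. The 4 largest mean differences were those of Retnlb, a secreted defence protein, at 1.95 (SE 0.92; pairs 5.83, 0.37, -1.53 and 3.15; 0.66 without siRNA pair 1), Clca1, a mucus protein, at -1.12 (SE 0.39), Gcnt3, a mucin glycosyltransferase, at 0.79 (SE 0.38) and Galnt12, another, at -0.58 (SE 0.21). Of these, Galnt12 had the same sign in all 4 pairs, with -0.56, -0.61, -1.03 and -0.13. Retnlb was dim on the 4 controls, at a mean log2 intensity of 4.77, and its mean difference was 3.11 without siRNA pair 3. With each array's minimum less 1 subtracted, the Retnlb pairs were 6.44, 2.21, -4.96 and 6.18. Clca1 was higher in siRNA pair 2, by 0.50, and its mean was -0.73 without the shRNA pair.

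Paneth markers had 8 of 8 measured genes lower in the mean of the 4 pairs, with a median of -0.73, and crypt base stem cell markers 12 of 12, with a median of -0.76; none passed (limma). The Paneth medians by pair were -0.19, -1.73, 0.26 and -0.71, and the stem cell medians -0.80, -1.64, -0.11 and -0.46, in the same order of pairs. Without siRNA pair 2, 6 of the 8 Paneth genes were lower, with a median of -0.33, and 11 of the 12 stem cell genes, with a median of -0.47. Pla2g2a, a Paneth antimicrobial gene, differed by -0.57, -3.62, 0.52 and -1.01, with a mean of -1.17, against -0.35 without siRNA pair 2. Ang4, another, differed by 0.23, -3.32, 0.41 and -1.56, with a mean of -1.06, against -0.31 without siRNA pair 2. Neither kept 1 direction. Olfm4 and Lgr5, which mark crypt base stem cells, stood at -1.80 (SE 0.27; limma adjusted p = 0.105) and -1.36 (SE 0.27; limma adjusted p = 0.219), lower in all 4 pairs. Atoh1 is expressed in the crypt, and its differences of -0.62, -0.88, -0.53 and -0.63 stood beside these list medians; the part of crypt content in them was not tested. Of the 16 mitotic genes, 15 were lower over the 4 pairs, with a median of -0.39, but without siRNA pair 2 the direction turned, with 5 lower, 11 higher and a median of 0.08.

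**Figure D4:**
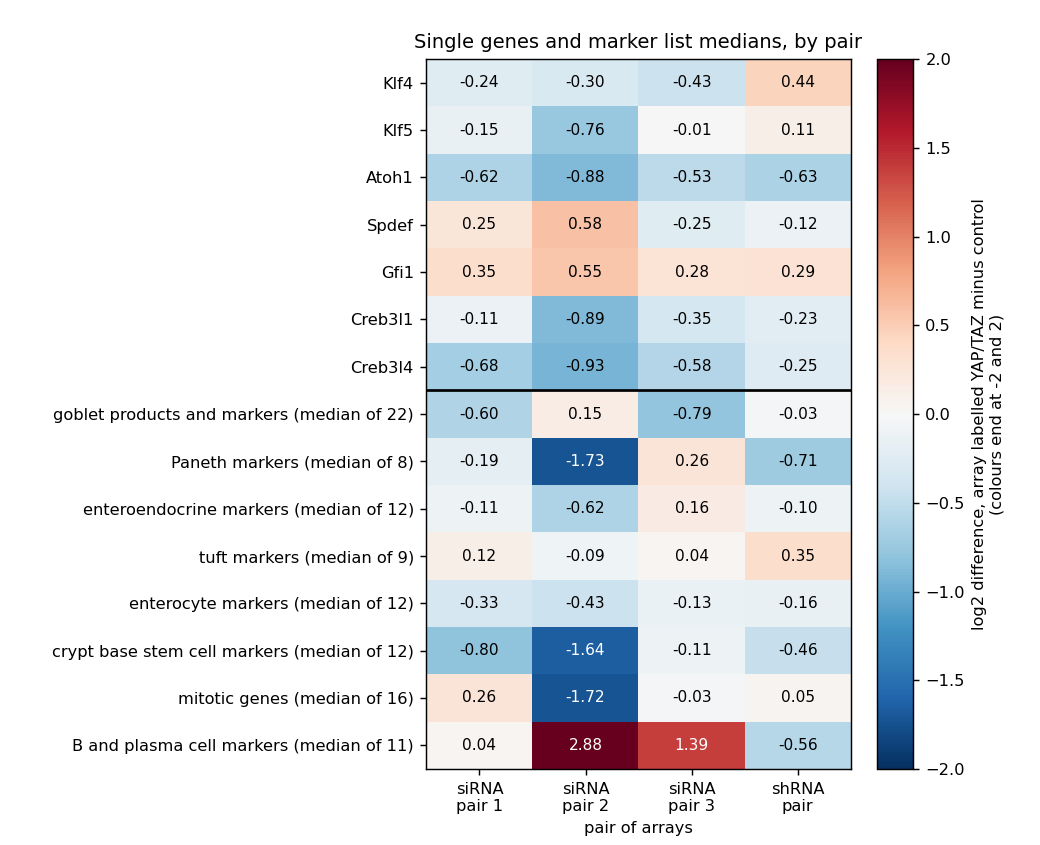
Log2 difference, array labelled YAP/TAZ minus its control, in each of the 4 pairs (columns) for the 7 genes (above the line) and for the medians of 8 marker lists (below it), with blue for lower and red for higher. Atoh1 is blue in every pair at -0.53 to -0.88, as are Creb3l1, Creb3l4 and the crypt base stem cell and enterocyte medians. The goblet, Paneth, enteroendocrine, tuft, mitotic and B cell medians change sign between pairs.

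Enteroendocrine markers had 5 of 12 higher and 7 lower in the mean of the 4 pairs, with a median of -0.20, and Nts, a gut hormone gene, at -1.15 and Pcsk1, a prohormone convertase, at 0.67 (1.01 without siRNA pair 2); without siRNA pair 2 the median was 0.02. Tuft cell markers had 6 of 9 higher and 3 lower, with a median of 0.17, or 0.03 without siRNA pair 2. Of these, Alox5ap stood at 0.44, which was 0.76 without siRNA pair 2 and turned to -0.16 without the shRNA pair, and Plcb2 at 0.33. Notch targets had 3 of 9 higher and 6 lower, with a median of -0.03, or -0.13 without siRNA pair 2 (Olfm4 -1.80; Dtx1 0.54, or 0.17 without that pair). Enterocyte markers had 5 of 12 higher and 7 lower, with a median of -0.16. Lct, the lactase gene, stood at -1.58, with pairs of -1.62, -1.49, 0.34 and -3.55 and a mean of -0.92 without the shRNA pair. Fabp1, a fatty acid binding protein gene, differed by 4.96 in siRNA pair 1 and -2.54 in siRNA pair 2. The Fabp1 mean of 0.95 turned to -0.38 without siRNA pair 1 and was 2.12 without siRNA pair 2. Epithelial markers had 2 of 10 higher and 8 lower, with a median of -0.14 (Epcam -0.34, Krt8 -0.32). No gene of these lists passed (limma, over the 4 pairs). Among other cells, B and plasma cell markers had 11 of 11 higher, with a median of 0.96 (Fcer2a 1.29, Cd22 1.12); without siRNA pair 2, 8 of 11 were higher, with a median of 0.22 (Fcer2a 0.48, Cd22 0.24). T cell markers had 6 of 10 higher, with a median of 0.10, or 0.21 without siRNA pair 2 (Cd2 0.57, or 0.32; Cd4 0.32, or 0.21). Without siRNA pair 3 the T cell direction turned, with 4 higher, 6 lower and a median of -0.24. Myeloid markers had 10 of 12 higher, with a median of 0.17 (S100a8 0.77, Mpeg1 0.76). Without the shRNA pair the myeloid direction turned, with 4 higher, 8 lower and a median of -0.11. S100a8 was 0.21 without siRNA pair 1, and Mpeg1 was 0.36 without the shRNA pair. Fibroblast markers stood at a median of -0.02, or -0.12 without siRNA pair 2 (Dcn -0.55, Col3a1 -0.36). Smooth muscle markers stood at 0.13, or 0.09 without siRNA pair 2 (Lmod1 0.41; Myh11 0.41, or 0.21), and endothelial markers at -0.16, or -0.21 (Pecam1 0.57, or 0.23; Tie1 -0.27, or -0.10).

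Of the other regulators of the secretory lineage, 11 of 33 measured were higher and 22 lower in the mean of the 4 pairs, with a median of -0.15 (-0.06 without siRNA pair 2), and none passed (limma). Ascl2, a stem cell helix-loop-helix factor, stood at -0.998 (SE 0.34), with pairs of -0.85, -1.90, 0.38 and -1.62. Xbp1, the leucine zipper factor of the unfolded protein response on which Paneth and goblet cells depend, stood at 0.82 (SE 0.24), with pairs of 1.19, 0.00, 1.23 and 0.84, so it ran opposite to Creb3l4 in 3 pairs, and its value in siRNA pair 2 was -0.05 with arrays centred on the 75th percentile. Hnf4g, a nuclear receptor of the epithelium, stood at -0.56 (SE 0.21) and Notch1, the receptor upstream of Atoh1 repression, at -0.55 (SE 0.26), with pairs of -0.67, -1.47, -0.09 and 0.05 and a mean of -0.24 without siRNA pair 2.

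The other Krüppel-like factors had 11 of 15 higher and 4 lower, with a median of 0.20 (0.06 without siRNA pair 2), and none passed (limma). Klf10, a TGF-beta early response factor, stood at 0.61 (SE 0.22) and was higher in all 4 pairs, by 0.99, 0.32, 0.11 and 1.03. Klf15 stood at -0.40 (SE 0.21), Klf14 at 0.37 (SE 0.24; 0.12 without siRNA pair 2) and Klf1, the erythroid factor, at 0.33 (SE 0.20; 0.20 without siRNA pair 2). A further list held 7 measured genes: other CREB3 family members, ATF6 factors, and proteins that process or escort membrane-bound transcription factors of any family. Of these, 3 were higher and 4 lower, with a median of -0.09 (-0.06 without siRNA pair 2), and none passed (limma). Of the CREB3 family, Creb3 stood at 0.36 (SE 0.22; 0.57 without siRNA pair 2), Creb3l3, a factor of liver and gut lipid metabolism, at 0.31 (SE 0.23) and Creb3l2 at -0.19 (SE 0.26; -0.06 without siRNA pair 2). Atf6, which the same pair of Golgi proteases releases from the membrane, stood at -0.13 (SE 0.19), Atf6b at 0.04 (SE 0.19), which was 0.09 without siRNA pair 2 and turned sign without siRNA pair 1 or 3, the protease gene Mbtps1 at -0.09 (SE 0.19) and Scap at -0.31 (SE 0.20).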

How the data were processed

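The authors deposited linear intensity values of 28853 probe sets for each array, from biotin-labelled material per the labels' protocols. The background correction, summarisation and scaling of the deposited intensities were not given in the sources used here. Array medians ran from 76.4 to 95.5. Values were put on the log2 scale and quantile normalized. Of the probe sets, 21789 named 1 gene, and the brightest of a gene stood for it (19938 genes, no filter on dim genes); each of the 7 members had 1 probe set. Symbols were updated through Entrez identifiers for 21698 probe sets.

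The arrays labelled siYAP/TAZ (n = 3) were compared with siGFP (n = 3), and all 8 arrays by the 4 labelled pairs as a block, with limma 3.58.1 in R 4.3.3 (lmFit, eBayes), Benjamini-Hochberg adjusted over all genes at 0.05; scripts were tested on simulated data. Exact permutation tests were run on single genes. With 1 array per group, the shRNA arm was not tested. For arrays, their number limits the precision.

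Same-numbered siRNA arrays correlated at 0.755, -0.131 and 0.571 in their deviations from the group means, so the numbers are not shown to pair the arrays; the pairs rest on the labels. The members and gene lists were chosen with earlier results of these data known. List genes named are the 4 with the largest mean difference over the 4 pairs for goblet products, other regulators and other Krüppel-like factors, 2 for other lists, and all of the CREB3 and ATF6 list. Alternatives covered normalization, scale, dim genes, probe sets, prior, pairing and left-out arrays.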

Additional observations from a re-analysis of the deposited data

Results flagged for a closer look

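Klf4 differed by 0.44 on the log2 scale in the shRNA pair, above its control, and lay below control in every siRNA pair, at -0.24, -0.30 and -0.43. Klf5 differed by 0.11 in the shRNA pair and by -0.15, -0.76 and -0.01 in the siRNA pairs. These are opposite directions in the arms with quantile normalization. The difference between arms was not tested, since the shRNA arm has 1 array per group. The Klf5 value in the shRNA pair was -0.007 with arrays centred on the 75th percentile and -0.004 without normalization. In siRNA pair 3 the Klf5 value was 0.08 with arrays centred on the 75th percentile. Its direction in both pairs depends on the scaling.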

How the results depend on the processing

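No member passed the threshold under any alternative: the smallest limma adjusted p of a member was 0.715 over 13 alternatives in the siRNA arm and 0.313 over 10 over the 4 pairs. In simulated data with 200 changed genes, limma recovered 0% of changes of 1 log2 unit in either comparison. A failure to pass therefore cannot tell a change of the members' size from none. Atoh1, Creb3l1 and Creb3l4 were lower and Gfi1 higher in all 4 pairs under each of the 4 other scalings and probe set choices, while Klf5 became lower in all 4 without normalization. The mean of probe sets could not change a member's difference, since each member has 1 probe set. Without normalization the median of the differences of all genes was -0.12, 0.05, -0.14 and 0.04 in the pairs. With arrays centred on the 75th percentile it was -0.08, 0.13, -0.06 and 0.04.

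Leaving out single siRNA arrays gave -1.01 to -0.37 for Atoh1, -1.10 to -0.39 for Creb3l4, -1.23 to 0.17 for Creb3l1, 0.06 to 0.72 for Gfi1, -0.58 to -0.01 for Klf4, -0.63 to -0.07 for Klf5 and -0.0226 to 0.37 for Spdef, whose sign turned, to -0.0226, without siYAP/TAZ 2. Creb3l1 turned to 0.17 without siGFP 1. The Klf4 to Klf5 ratio ran from -0.47 to 0.56, with 0.49 without siYAP/TAZ 1 and 0.56 without siGFP 3. Leaving out a siRNA pair gave -0.71 to -0.59 for Atoh1, -0.62 to -0.50 for Creb3l4, -0.49 to -0.23 for Creb3l1 and 0.30 to 0.40 for Gfi1. It gave -0.09 to -0.03 for Klf4, -0.27 to -0.02 for Klf5 and -0.0380 to 0.24 for Spdef, with -0.0380 without siRNA pair 2.

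Counts of genes past the threshold moved. In the siRNA arm limma called 0, against 1 with the replicate block and 0 to 13 with an array left out, 13 without siYAP/TAZ 1. In that replicate block fit Atoh1 stood at -0.68 (SE 0.27) and Creb3l4 at -0.73 (SE 0.27), both with an adjusted p of 1.00. Over the 4 pairs limma called 4, against 15 with the 75th percentile, 19 without normalization, 2 with each array's minimum less 1 subtracted, 8 with only the 13292 brighter genes, 12 with a trended robust prior, 0 with no replicate block, and 7 to 26 with a pair left out (11, 26 and 7 without siRNA pairs 1, 2 and 3). Of the 21 correlations between members, 5 passed, of which 4 involve Klf5 or Creb3l1, against 9 without normalization. Of 46 list genes chosen by the naming rule, 34 had a mean that moved by over 1.5 times or turned sign with a pair left out, 21 of them without siRNA pair 2, and 3 turned sign; leaving out pairs for the lists was chosen after seeing the data. The causes were not tested.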
